A study of Caenorhabditis elegans with 2 samples.

Results

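The histone genes of Caenorhabditis elegans were examined for FLT-1 binding in early embryos. Members were all genes whose RefSeq name is his- followed by a number: 72 genes, all protein-coding, of 19973 protein-coding genes on the nuclear chromosomes. By RefSeq product they were 17 genes for histone H2A, 16 for H2B, 15 for H3, 16 for H4, 5 for the replacement variant H3.3, 1 for the linker histone H1 (his-24) and 2 for proteins with a histone domain only (his-39 and his-73). Of these, 62 lay in 31 divergent pairs, each a minus-strand gene whose start faced that of a plus-strand gene at most 2000 bp away, and 10 stood outside such a pair. The chromatin immunoprecipitation sequencing experiment held 1 group of 2 biological replicates and no second condition: whole embryos of strain OP797, collected by egg bleaching at the early embryonic stage and aged 1 hour. These worms carry the integrated transgene wgIs797, an flt-1 fosmid with a TY1 EGFP 3xFLAG tag together with unc-119(+), in an unc-119 (tm4063) background, and the tagged protein was pulled down with an antibody to GFP. What was mapped is therefore the tagged protein made from a transgene, in all cells of the embryo together.

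A nucleosome wraps DNA around an octamer of the core histones H2A, H2B, H3 and H4, and the linker histone H1 binds where DNA enters and leaves it. Core histone genes are used in S phase, when new DNA has to be packaged, and early embryos replicate quickly. In C. elegans most of them are short genes without introns that sit head to head, an H2A gene with an H2B gene or an H3 gene with an H4 gene, over a short shared promoter, and many of these pairs exist as near-identical copies. FLT-1, which the labels also give as baz-2, is related to the mammalian BAZ2 proteins, large subunits of complexes that move nucleosomes.

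In the pooled thresholded peak list, 20 of 72 histone genes (27.8%, exact 95% interval 17.9 to 39.6) had a peak summit between 500 bp upstream and 200 bp downstream of an annotated transcript start. Over all protein-coding genes the share was 2.88%. That list holds the 1083 peaks that the authors' irreproducible discovery rate procedure (IDR, which keeps peaks ranked alike in 2 sets of reads) left from a ranked list of 48126. The 20 genes held 13 distinct peaks, because most peaks lay in the windows of both genes of a pair: 10 of 31 pairs (32.3%, 16.7 to 51.4) and the unpaired H4 gene his-37. For divergent protein-coding pairs in general the share was 7.87%. Their starts lay further apart, at a median of 669.5 bp against 259 bp for the histone pairs. The count depended on the replicate: 16 genes had a peak in the list of replicate 2 alone (1.87% of all protein-coding genes) and 11 in that of replicate 1 alone (1.52%). Before the threshold, 27 histone genes had an entry in the pooled ranked list (36.5% of all protein-coding genes), 32 in that of replicate 1 (38.3%) and 27 in that of replicate 2 (34.5%). The conservative list, drawn from the 2 replicates against each other, also marked 20 genes (2.63%), with his-24 and his-60 in place of his-47 and his-48. No p-value accompanies these shares, since the members were known to carry peaks when they were chosen and genes of a pair share a peak.

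The sequences below are the intervals between the facing starts of 4 H3/H4 pairs of like sequence, chosen because 2 carried a peak and 2 did not. They are read from the H4 gene towards the H3 gene in genome build WBcel235 (ce11). Capitals mark each TATAAA and each ATGTGTCCCCGCAG on either strand. The second is the longest stretch shared by the strongest peaks of his-37, his-4, his-5 and his-18. These 4 genes were chosen, and the stretch searched for, after the sequences had been read.
his-5 to his-6 (peak), chrV:8534978-8535213, minus strand: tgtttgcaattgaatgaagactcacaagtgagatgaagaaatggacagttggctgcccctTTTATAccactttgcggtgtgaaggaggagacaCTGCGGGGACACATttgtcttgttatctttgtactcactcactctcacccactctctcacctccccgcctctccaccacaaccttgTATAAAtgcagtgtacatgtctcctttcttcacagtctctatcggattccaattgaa
his-18 to his-17 (peak), chrV:8897993-8898227, minus strand: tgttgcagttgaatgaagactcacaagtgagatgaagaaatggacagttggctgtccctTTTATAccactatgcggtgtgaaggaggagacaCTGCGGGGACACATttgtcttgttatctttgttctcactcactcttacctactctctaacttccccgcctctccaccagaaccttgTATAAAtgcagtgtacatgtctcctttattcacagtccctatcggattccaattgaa
his-28 to his-27 (no peak), chrV:8889800-8890037, plus strand: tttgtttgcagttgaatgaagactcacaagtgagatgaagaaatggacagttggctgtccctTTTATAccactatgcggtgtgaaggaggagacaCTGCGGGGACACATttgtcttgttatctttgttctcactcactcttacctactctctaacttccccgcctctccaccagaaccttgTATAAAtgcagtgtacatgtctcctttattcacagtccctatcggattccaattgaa
his-38 to his-40 (no peak), chrX:7309876-7310109, plus strand: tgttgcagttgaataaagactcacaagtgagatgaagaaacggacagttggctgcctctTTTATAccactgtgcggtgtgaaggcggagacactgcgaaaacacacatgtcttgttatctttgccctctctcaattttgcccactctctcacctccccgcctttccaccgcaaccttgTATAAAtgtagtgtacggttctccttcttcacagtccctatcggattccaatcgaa
In all 4 a TATAAA lies near each gene. Over all pairs TATAAA was present in 24 of 31 intervals and in 10 of 14 of the H3/H4 type, and his-60/his-59 and his-63/his-64, which carried peaks, had none. Between them the first 3 also hold ATGTGTCCCCGCAG, which the fourth does not. The interval of his-17/his-18 differs from that of his-28/his-27 by 3 edits (98.7% identity), and his-28/his-27 is identical to his-50/his-49, so few 50-base windows tell these pairs apart.

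H3/H4 pairs carried a peak at 6 of 14 (42.9%, 17.7 to 71.1) and H2A/H2B pairs at 3 of 16 (18.75%, 4.05 to 45.6), and these intervals overlap widely. In the pooled ranked list, before the threshold, the counts were 7 of 14 and 3 of 16, against 52.4% of the more widely spaced divergent protein-coding pairs. Without replicate 2, the counts in the thresholded list of replicate 1 were 3 of 14 H3/H4 and 1 of 16 H2A/H2B pairs. Without replicate 1, that of replicate 2 gave 5 of 14 and 2 of 16. The share of divergent protein-coding pairs was not computed for these 2 lists. Over single protein-coding genes the shares were 1.52% and 1.87%.

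Among H3/H4 pairs the strongest peak lay between his-31 and his-32 (IV:8334087-8334210), with the authors' signal value, whose scale is not stated, at 98.4 and rank 375 of 1083. In the replicates' own ranked lists its signal was 56.0 in replicate 1 and 44.9 in replicate 2. Its summit was 5 bp from the midpoint between the starts. The pair his-6/his-5 had 2 peaks. The stronger one (V:8535051-8535280) had a signal of 97.7, with 35.0 in replicate 1 and 69.8 in replicate 2, and its summit was 48 bp from the start of the H4 gene his-5. The weaker one (V:8534743-8534972) had 51.8, with 33.1 in replicate 1 and 27.5 in replicate 2, and lay 119 bp inside the coding sequence of the H3 gene his-6. Both were listed in replicate 2 and neither in replicate 1, although both had ranked entries there.

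At his-60/his-59 the peak (IV:7487718-7487890; signal 84.4; 35.2 in replicate 1 and 46.4 in replicate 2) was centred 203 bp inside the H4 gene his-60. It therefore counted as a promoter peak only for its H3 partner his-59. The peak at his-63/his-64 (IV:11407118-11407238; signal 81.5; 43.8 in replicate 1 and 32.5 in replicate 2) was centred 56 bp inside the H4 gene his-64, and replicate 2 alone listed it. At his-17/his-18 (V:8898098-8898327) the signal was 70.8, with 29.5 in replicate 1 and 49.5 in replicate 2, and the summit was 15 bp from the start of the H4 gene his-18. The pair his-2/his-1 had 2 peaks, 1 inside each gene. That in the H4 gene his-1 (V:16042543-16042772) had a signal of 69.5, with 41.4 in replicate 1 and 26.1 in replicate 2. That in the H3 gene his-2 (V:16041944-16042173) had 63.3, with 41.7 in replicate 1 and 27.3 in replicate 2. The peaks ranked higher in replicate 1 (733 and 721) than in replicate 2 (1440 and 1311), yet the first was listed by replicate 1 alone and the second by replicate 2 alone. No summit lay between the starts of his-2 and his-1, the 237 bp that separate them.

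Among H2A/H2B pairs the strongest peak was at his-4/his-3 (V:16040548-16040655; signal 85.4; 41.0 in replicate 1 and 46.7 in replicate 2), and its summit lay between the starts, 74 bp from that of the H2B gene his-4. The noncoding RNA gene T10C6.19 lies within 250 bp of that summit, and F22B3.19 within 250 bp of the one at his-63/his-64. Their part in the signal was not tested. At his-61/his-62 (IV:7486091-7486182) the signal was 67.1, with 39.7 in replicate 1 and 32.04 in replicate 2, at a summit 83 bp inside the H2A gene his-61. The lowest of the 13 signals, 51.6, was at his-47/his-48 (IV:11324814-11325043), 184 bp inside the H2B gene his-48. Replicate 1 gave that peak 43.2 and replicate 2 only 16.2, rank 6551 there, and it was the 1 histone peak missing from the authors' conservative list.

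The strongest histone peak of all belonged to the pair of mixed type, the H4 gene his-67 facing the H2A gene his-68 on chromosome I (I:9988822-9989076). Its signal was 159.85 (rank 168), with 100.3 in replicate 1 and 77.0 in replicate 2, and both replicates listed it. The summit was 12.5 bp from the midpoint of an interval 100% unique in sequence, the widest among the histone pairs at 369 bp. The 13 signals together had a median of 81.5, against 75.4 over all 1083 peaks and 72.8 over the 445 peaks at protein-coding promoters.

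**Figure D1:**
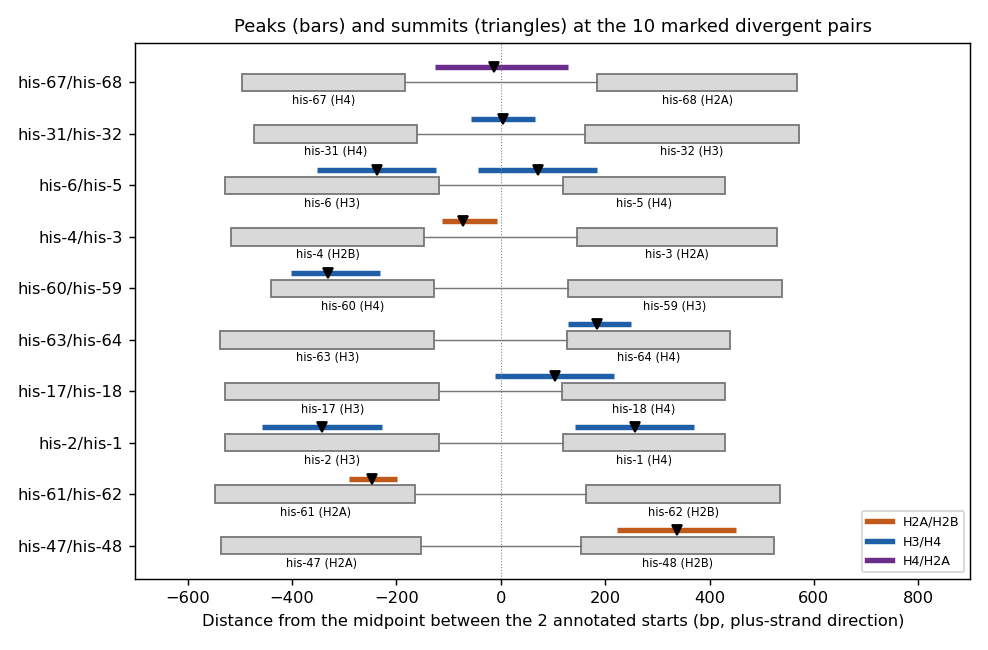
Peaks of the pooled thresholded list at the 10 divergent histone pairs that carried one, ordered by signal. Grey boxes are the genes, coloured bars the peaks by type of pair, black triangles the summits, and the horizontal axis the distance in bp from the midpoint between the facing starts. Summits fall between the starts at 5 pairs and inside a gene for 7 peaks.

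Outside the pairs, his-37, an H4 gene on chromosome V with no partner, had a peak 108 bp upstream of its start (V:9546882-9547111). Its signal was 88.2, with 42.5 in replicate 1 and 41.4 in replicate 2, and both replicates listed it. It is shown here because, although unpaired, it holds the same stretch beside a TATAAA, as does the peak of his-4/his-3 (capitals as above).
his-37 peak, chrV:9546882-9547111, plus strand: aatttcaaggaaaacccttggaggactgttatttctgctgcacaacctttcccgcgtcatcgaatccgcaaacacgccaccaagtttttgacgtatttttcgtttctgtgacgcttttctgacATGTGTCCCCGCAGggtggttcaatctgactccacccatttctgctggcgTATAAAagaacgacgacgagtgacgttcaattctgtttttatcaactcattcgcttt
his-4/his-3 peak, chrV:16040548-16040655, plus strand: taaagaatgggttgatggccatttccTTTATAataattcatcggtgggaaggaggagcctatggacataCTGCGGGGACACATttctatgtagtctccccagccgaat
The H1 gene his-24 had a ranked entry of signal 69.4, higher than several peaks that passed, with 38.2 in replicate 1 and 30.8 in replicate 2. It is in the conservative list but not in the pooled thresholded one, where its IDR-derived score, which runs up to 1000, was 191 and the lowest score kept was 831. The 5 H3.3 genes had no thresholded peak (0 of 5, which with 5 genes allows a share of up to 52.2%), and only his-72 had a pooled ranked entry (signal 37.99). The unpaired H3 gene his-42 had one of 47.5 and his-73 one of 16.8. In all, 5 of the 10 unpaired genes had a pooled ranked entry and 1 a thresholded peak, and over all protein-coding genes 36.5% had a pooled ranked entry.

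Much of the sequence at histone genes is repeated in the genome. The share of 50-base windows that occur once in the genome was taken as a measure of where reads can be placed, since neither labels nor files state the read length. It had a median of 7.13% over the promoter windows of the 72 histone genes, against 100% over all protein-coding genes, and 42 histone windows were under 50% unique, against 470 of 19973 windows in all (2.35%). Of the 31 intervals between facing starts, 17 had no unique 50-base window, 16 were identical to that of another pair, and only 21 distinct sequences remained. Likewise 36 of 72 genes shared their whole coding sequence with another gene.

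Most of the marked pairs were among those with unique sequence. Of the 11 pairs whose interval was at least 50% unique, 8 had a thresholded peak (72.7%, 39.0 to 93.98) and 9 a pooled ranked entry. Of the 20 pairs below that, 2 had a thresholded peak (10%, 1.23 to 31.7), his-17/his-18 and his-47/his-48, and the other 18 had no entry in the ranked list of the pooled reads or of either replicate. Among the unique pairs, 5 of 6 H3/H4 pairs (83.3%, 35.9 to 99.6) and 2 of 4 H2A/H2B pairs (50%, 6.76 to 93.2) had a peak. Below 50% the counts were 1 of 8 and 1 of 12. The types also differ in how many pairs are unique, so the lower share of H2A/H2B pairs over all 31 and their repeated sequence cannot be told apart. Counted by single gene, 23 of 30 histone windows at least 50% unique held a pooled ranked entry (76.7%) and 16 a thresholded peak (53.3%). Of the 42 histone windows under 50%, 4 held a ranked entry and 4 a thresholded peak (9.52%). Over protein-coding genes as a whole, 37.2% of windows at least 50% unique held a pooled ranked entry, against 8.30% of those under 50%. For thresholded peaks those shares were 2.91% and 1.49%. How the authors treated reads with several placements is not stated, and its part in the missing entries was not tested. Of the 50-base windows in the peaks at his-17/his-18 and his-47/his-48, 20% and 21.7% occur once. With 36-base windows the shares were 10.9% and 14.3%, and with 100-base windows 42.2% and 43.5%.

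The 3 unique pairs without a thresholded peak were his-38/his-40, his-8/his-7 and his-35/his-41. The H3/H4 pair his-38/his-40 on chromosome X had a pooled ranked entry of 44.6, with 26.0 in replicate 1 and 19.5 in replicate 2. The H2A/H2B pairs his-8/his-7 and his-35/his-41 had an entry in the ranked list of replicate 1 alone, of 19.7 and 13.5. The interval of his-38/his-40 is 89.4% identical to that of his-2/his-1. That pair had 2 peaks, but both lay in coding sequence, outside the interval compared.

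**Figure D2:**
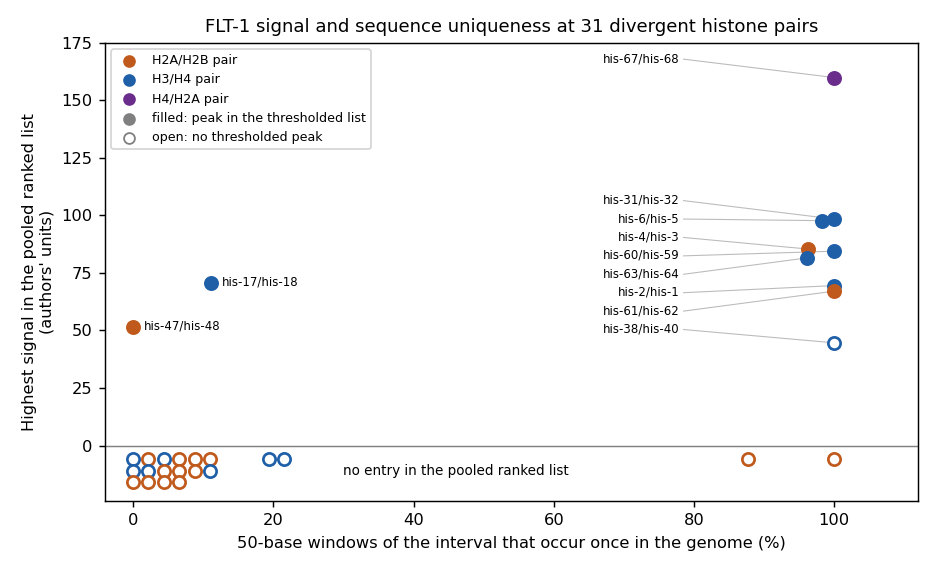
Highest signal in the pooled ranked list (vertical axis, the authors' units) against the share of 50-base windows of the interval that occur once in the genome (horizontal axis, percent) for the 31 divergent histone pairs. Filled points have a thresholded peak and open points none. Points below the line have no entry, and those at 0% are spread sideways so that each can be seen. Of the 11 pairs at or above 50%, 9 have an entry, and of the 20 below, 2.

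A larger share of summits lay in coding sequence at histone promoters than at other promoters. Of the 13 peaks, 7 had the summit inside a histone coding sequence (53.8%, 25.1 to 80.8), 56 to 224 bp past the coding start, 5 lay between facing starts and 1, at his-37, upstream. Among 432 promoter peaks of other protein-coding genes, 6 summits lay in a coding sequence (1.39%, 0.511 to 3.00). The genes also differ in annotation, since 65 of 72 histone genes are annotated from the coding start, against 23.5% of all protein-coding genes. Among other genes annotated in that way it was 4 of 56 summits (7.14%, 1.98 to 17.3), and among other divergent pairs with starts at most 400 bp apart 2 of 63 (3.17%, 0.387 to 11.0). Genes with both traits were not counted apart, and the part of annotation and spacing in the coding summits was not tested. The coding summits fell in H4 genes (his-60, his-64, his-1), H3 genes (his-2, his-6), an H2A gene (his-61) and an H2B gene (his-48). The his-64 peak begins at the third base of the coding sequence and is printed because it lies wholly within it.
his-64 peak, chrIV:11407118-11407238, plus strand: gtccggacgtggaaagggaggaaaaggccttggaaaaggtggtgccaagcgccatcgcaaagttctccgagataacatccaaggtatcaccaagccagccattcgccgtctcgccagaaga
This peak holds no TATAAA and no ATGTGTCCCCGCAG, nor do the other peaks with a coding summit. Lack of an exact match to either is not particular to them, since the his-31/his-32 peak, centred between the starts, also has none. That peak does hold atgtgtccctgcag, which differs from the stretch at 1 base. Near matches in the other peaks were not counted. The share of unique 50-base windows in these coding peaks was 54.5% in his-64, 70% in his-2, 82.2% in his-1, 82.6% in his-6, 89.1% in his-61 and 100% in his-60, with his-48 at 21.7%.

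Widening the search to 500 bp on either side of every histone gene added 7 peaks outside the promoter windows. In coding sequence there were 3 more: in the H3 gene his-32 (IV:8334414-8334643, signal 71.2), in the H3 gene his-17 (V:8897471-8897700, 68.4) and in the H2A gene his-3 (V:16040990-16041219, 46.3). That made 10 summits in histone coding sequence of 37 in any coding sequence among the 1083 peaks. The other 4 lay past the 3′ end of a gene. They were 135 bp past his-6 (V:8534317-8534546, 54.8), 65 bp past the H2B gene his-11 (II:13822127-13822356, 53.8), 318 bp past his-31 (IV:8333239-8333468, 13.97) and 242 bp past the H2A gene his-35 (V:9544302-9544531, 66.6), the last within the promoter window of mdf-1. Of these 7, the peaks in his-17 and past his-35 were listed in replicate 1, and the other 5 in neither replicate.

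Each of the 13 promoter peaks had an entry in the ranked list of both replicates, at signals of 29.5 to 100.3 in replicate 1 and 16.2 to 77.0 in replicate 2. Pooled peaks are not independent of either replicate, and the share of all 1083 peaks with such entries was not computed. Lists have their own scales, so ranks are compared. The 13 ranked 225 to 1446 (median 733) of 49032 in replicate 1 and 227 to 6551 (median 602) of 40309 in replicate 2. Summits in the replicates were 0 to 88 bp from the pooled summit, with a median of 6 bp. In the thresholded lists, 3 of 13 peaks (23.1%, 5.04 to 53.8) were in both replicates, those at his-67/his-68, his-37 and his-60/his-59. That compares with 434 of 1083 peaks overall (40.1%), inside the histone interval. Replicate 2 alone listed 7, replicate 1 alone 3, and none was in neither, against 27.2% of all peaks in neither. The conservative list held 12 of the 13, and the share of all 1083 peaks that it held was not computed.

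**Figure D3:**
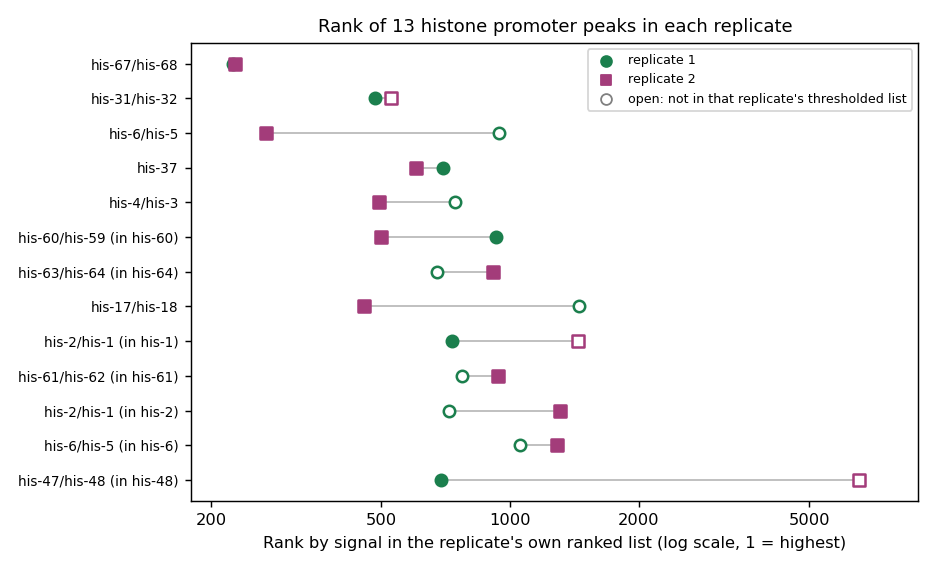
Rank by signal of the 13 histone promoter peaks in the ranked list of replicate 1 (circles) and replicate 2 (squares), on a log axis where 1 is the highest signal. Filled marks are in that replicate's thresholded list. Ranks run from 225 to 1446 in replicate 1 and from 227 to 6551 in replicate 2, the last at his-47/his-48.

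Histone genes chained at up to 20 kb formed 18 clusters, of which 9 had a promoter peak. The genes his-73, his-72, his-74, his-71 and his-24 each counted as a cluster alone. No share over groups of other genes was computed. The cluster of his-4, his-3, his-2 and his-1 on chromosome V (2.69 kb) had 3 peaks that covered all 4 genes. The cluster of his-61, his-62, his-60 and his-59 on chromosome IV (2.83 kb) had 2 peaks that covered 3 of its 4 genes. The 5-gene cluster from his-8 to his-39 also had 2, both at his-6/his-5. The largest cluster, 13 genes in 10.9 kb of chromosome II from his-16 to his-42, had no promoter peak, and 7.98% of its 50-base windows are unique. The 6 genes from his-50 to his-53 on chromosome V had none either, and no window there is unique. In the 8-gene cluster from his-28 to his-18, 1.61% of windows are unique, and his-17/his-18 at its end was the 1 pair of 4 with a peak.

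**Figure D4:**
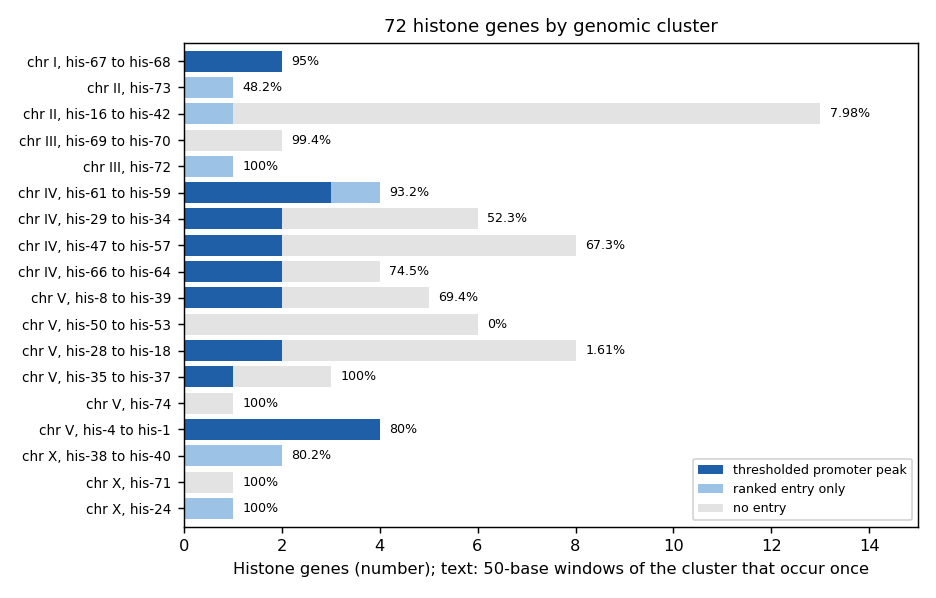
Number of histone genes in each of the 18 clusters, split into those with a promoter peak in the pooled thresholded list (dark blue), those with a pooled ranked entry only (light blue) and those with neither (grey). The percentage beside each bar is the share of the cluster's 50-base windows that occur once in the genome. The 13-gene cluster on chromosome II has no dark segment and 7.98% unique windows.

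Promoter sequence was searched over the 300 bp upstream of each gene on both strands. CTCCNCC was found at 66 of 72 histone genes (91.7%) and 13.35% of all protein-coding genes. TATAAA was found at 51 (70.8%) against 39.6%, GAGAG at 49 (68.1%) against 38.7%, and CCAAT at 41 (56.9%) against 45.1%. The 72 are not independent, since genes of a pair share most of the searched sequence and many pairs are copies. Of the 21 distinct intervals between facing starts, CTCCNCC was in 21, TATAAA in 16, GAGAG in 15 and CCAAT in 12. ATGCAAAT, the octamer of vertebrate H2B promoters, was found at none of the 72 and at 2.87% of all genes. The stretch ATGTGTCCCCGCAG was upstream of 24 protein-coding genes in all (0.12%), of which 22 were histone genes, among them 5 for H2A, 4 for H2B, 5 for H3 and 7 for H4. Between facing starts it was present in 10 of 31 pairs, or 7 of the 21 distinct intervals. It was in 5 of 10 pairs with a peak and 5 of 21 without, and among pairs at least 50% unique in 4 of 8 with a peak and 0 of 3 without. It was read from 4 of these peaks, 3 of them at pairs (his-4/his-3, his-6/his-5 and his-17/his-18), which therefore hold it by choice. At his-60/his-59, also counted as holding it with a peak, the peak lies inside his-60 and outside the interval. Copies of a pair share the stretch as well. Only exact matches were counted, and near matches were not counted across pairs. The his-2/his-1 interval, whose version differs at 1 base, therefore counts as lacking it. These pair counts are a description and cannot compare pairs with and without a peak. No motif of this set contains another, and a match is not shown to be a binding site.

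Other genes of histone supply were read from a list of 26. A thresholded promoter peak was at 5 of them, where the share of all protein-coding genes was 2.88%, and at 3 in the conservative list, which lacks chaf-2 and cdl-1. The lists of replicates 1 and 2 alone gave 3 and 4 of the 26, where the shares of all protein-coding genes were 1.52% and 1.87%. The 4 in replicate 2 include the chaperone gene lin-53, which had no pooled thresholded peak. The 5 with a pooled thresholded peak were 2 of 11 linker histones and variants, 2 of 13 histone chaperones and 1 of 2 genes for proteins that act on histone mRNA. The variants were htz-1, which encodes H2A.Z (signal 87.8, listed in both replicates), and hil-2, which encodes an H1 (79.5, listed in replicate 2). The chaperones were unc-85, an ASF1 protein that carries H3 and H4 (92.3, both replicates), and chaf-2, a subunit of the assembly factor CAF-1 (63.5, replicate 1). The fifth was cdl-1, the protein that binds the hairpin at the end of histone mRNAs (51.8, in neither replicate's list). The 2 genes for centromeric H3, hcp-3 and cpar-1, had no thresholded peak, though hcp-3 had pooled ranked entries, the highest of signal 34.6. In the pooled ranked list 15 of the 26 had an entry, where the share of all protein-coding genes was 36.5%.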

How the data were processed

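FLT-1 ChIP-seq peak lists from 2 biological replicates of 1 group were used as deposited: 4 lists of the whole series and 2 of each replicate, on build ce11 per the labels. Fragmentation was by sonication to 200 to 800 bp per the labels. Not given in the sources used here: aligner, peak caller, read length, depth and the treatment of reads that map to several places. No counting error can therefore be attached to a peak. The authors' deposited values were a signal per peak, of unstated scale, a score up to 1000 from the IDR, a summit offset, and −log10 of the global IDR in the ranked lists. All 977 conservative peaks occur in the second ranked list of the series, 62.5% and 58.8% of whose input signals occur in the ranked lists of replicates 1 and 2, and it was read as the comparison of the replicates. Control libraries were not analysed here. Ranks were taken by the authors' signal within each list.

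Members, lists and motifs were chosen with earlier results of these data known. Gene models came from Ensembl release 115 and names from RefSeq, matched through WormBase IDs (46881 of 46926). For 22 of the 72 histone genes the Ensembl symbol differed, and RefSeq names are used. A promoter peak had its summit from 500 bp upstream to 200 bp downstream of a transcript start. Replicate support meant an overlap of at least 1 bp. Text names follow a rule: every histone gene with a promoter peak, the pairs with ranked entries, unpaired genes with one, and supply genes with a peak; other named genes were chosen after their values were seen. Shares carry exact Clopper-Pearson 95% intervals, which treat genes as independent though neighbours share peaks. Sequence windows of 36, 50 and 100 bases were tested for exact single occurrence on either strand, and interval identities came from edlib 1.3.9.post1 edit distances, with Python 3.11.15, NumPy 2.4.6, SciPy 1.17.1 and Matplotlib 3.10.9. The window counts were tested on a simulated genome with planted copies. No test between groups was possible with 1 group.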

Additional observations from a re-analysis of the deposited data

How the results depend on the processing

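Of 77 recomputed values, 62 stayed within the limit set (1.5 times a count, or the replicate spread) and 15 moved. All are counts or medians without a sign, so none could reverse. The limit also leaves out the share of all genes in each list. The pooled ranked list gave 27 histone genes, within the limit of 20. Over all protein-coding genes, however, the share there was 36.5%, against 2.88% in the pooled thresholded list. The limit likewise ignores how many pairs were counted. Pairs at least 50% unique gave 8, within the limit of 10, but that was 8 of 11 against 10 of 31. Using the list of either replicate alone, histone genes with a peak numbered 11 to 16 (20 in the pooled list), distinct peaks 6 to 11 (13), pairs 5 to 8 (10), H2A/H2B pairs 1 to 2 (3) and H3/H4 pairs 3 to 5 (6). In those lists 1.52% (replicate 1) and 1.87% (replicate 2) of all protein-coding genes had a peak. With peaks above the median signal only, there were 12 genes, 7 peaks, 6 pairs and 1 H2A/H2B pair. When a summit counted for the nearest start alone, 11 genes had a peak, since a shared peak then counts once. Asking for a summit between the facing starts left 5 pairs, 1 of H2A/H2B and 3 of H3/H4, with a median of 70.5 bp from the midpoint (210.5 bp over all 12 peaks at pairs). In the pooled ranked list, an alternative chosen after seeing the data, 14 of 18 clusters had an entry (9). No such share was computed for groups of other genes, and 36.5% of single protein-coding genes had an entry. The conservative list adds a peak at his-24 and a second one at his-60/his-59 (signal 50.6), and lacks that at his-47/his-48. It therefore marks the genes his-24 and his-60 in place of his-47 and his-48. No paired analysis was possible because there is 1 group. Windows of 36 and 100 bases gave the same counts of pairs as 50, with 8 of 11 and 2 of 20 marked. Depth is unknown.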
